A study of Mus musculus with 36 samples.

Results

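The data compare kidney cortex with kidney medulla of Balb/c mice that had received 177Lu-octreotate, a somatostatin analogue that carries a beta-emitting lutetium isotope. All 15 cortex arrays and all 15 medulla arrays at 1.3, 3.6, 14, 45 and 140 MBq were taken, 3 of each tissue at each activity, which is 30 of the 36 arrays of the series. Messenger RNA of fresh-frozen tissue was measured 24 h after injection on Illumina bead arrays. The remaining 6 arrays, 3 per tissue at 0 MBq, were left out of the fit and appear only where named. All animals behind the 30 arrays had therefore received the nuclide. The labels give neither sex nor age, and do not say whether arrays of a group are separate animals or how the tissues were dissected. The p-values hence measure the spread between these samples, which may be technical.

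The cortex holds the glomeruli, the convoluted parts of the proximal and distal tubules and the connecting tubules. The medulla holds the straight proximal tubule (S3) in its outer stripe, the loops of Henle, the vasa recta and the collecting ducts, and builds the osmotic gradient with which urine is concentrated. Each nephron segment carries its own channels and carriers, and these mark the segments in a piece of kidney. In such bulk tissue fewer cells of a type and less RNA per cell cannot be told apart.

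Median signals before normalisation lay between 134.3 and 208.2 on cortex arrays and between 156.9 and 225.2 on medulla arrays, and 47.3 to 51.8% of the probes were detected. Marker genes of neighbouring tissues stood out on a few arrays. Adipocyte genes were high on 5 arrays: cortex 1.3 MBq replicate 2, 14 MBq replicate 3 and 45 MBq replicates 1 and 3, and medulla 3.6 MBq replicate 2, whose list means lay 1.46 to 3.32 log2 units above the median of the 30 arrays. Genes of the adrenal cortex were high on cortex 14 MBq replicate 3 (list mean 4.94 above the mean of the 30 arrays) and on medulla 14 MBq replicate 3 (4.07), and to a lesser degree on medulla 1.3 MBq replicate 1 (0.56). Some results moved without these arrays, and the other value is given beside the main ones among them.

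Values below are normalised log2 signals, and differences are cortex minus medulla on that scale, ± SE from a limma fit with activity as a factor. Of 11261 genes tested, 192 (1.7%) differed at a Benjamini-Hochberg adjusted p under 0.05 and by at least 2-fold. The direction was uneven: 13 genes (0.115%) were higher in cortex and 179 (1.59%) were lower in cortex. Without the demand for a 2-fold difference 3003 genes (26.7%) passed, 1572 of them (14%) higher and 1431 (12.7%) lower in cortex. The list counts below use adjusted p alone, and these shares, 14% higher and 12.7% lower, are their comparison over all genes. The median difference over all genes was 0.039. Large differences were mostly toward medulla, while small ones ran in both directions. The 2-fold count changed with the background correction: without it 82 genes were at least 2-fold apart, 0 of them higher in cortex, although 1627 genes passed in that direction by adjusted p. With the 5 arrays of high adipocyte signal left out, 30 genes were higher and 234 lower by 2-fold. Complete separation, with no array of one tissue inside the range of the other, was seen for 2 genes higher (0.0178%) and 62 genes lower (0.551%) in cortex.

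Npy, which encodes the peptide transmitter neuropeptide Y, separated the tissues most. Its lowest, median and highest signals were 5.66, 6.68 and 9.23 on cortex arrays, against 10.71, 11.50 and 12.26 on medulla arrays. No cortex array reached the medulla range, and the highest cortex value belonged to 140 MBq replicate 2. The difference was -4.43 ± 0.23, a 21.6-fold lower level in cortex (limma, adjusted p = 2.10e-13). Nccrp1, an F-box-related protein of epithelia, was lower in cortex by -3.94 ± 0.32, with 5.36, 7.64 and 9.59 on cortex arrays and 10.30, 11.46 and 12.16 on medulla arrays. Other genes with complete separation included Cck, the gene of cholecystokinin (-2.98 ± 0.20), and Fst, whose product follistatin binds activin (-2.87 ± 0.16). Corin, the protease that processes pro-atrial natriuretic peptide (-2.67 ± 0.20), Tnn, a tenascin (-2.38 ± 0.17), and Reln, which encodes reelin (-2.21 ± 0.21), separated completely too. Lypd2 (-3.04 ± 0.17), a member of the Ly6 family, and Scel (-2.87 ± 0.19), which encodes the epithelial protein sciellin, differed as much. Bcat1, the cytosolic branched-chain aminotransferase (-2.53 ± 0.33), and Slc39a8, a zinc and manganese carrier (-2.13 ± 0.22), completed this group. Many of these transcripts sat near the detection limit in cortex: Cck, Fst and Tnn were detected on 1 of 15 cortex arrays each, and on all 15 medulla arrays. The sizes of these differences changed with the processing: with the authors' normalised table Lypd2 was at -1.45, Cck at -1.41, Fst at -1.33, Scel at -1.33 and Tnn at -1.03, each still past the threshold. Spag5, a mitotic spindle protein, gave -2.52 ± 0.18 with its brighter probe and 0.04 ± 0.11 with a second, dim one, so its probes disagree. Sycn, chosen after its values were seen, was detected on 0 cortex arrays and 15 medulla arrays and was at least 2.48-fold lower in cortex (limma, adjusted p = 3.64e-11).

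**Figure D1:**
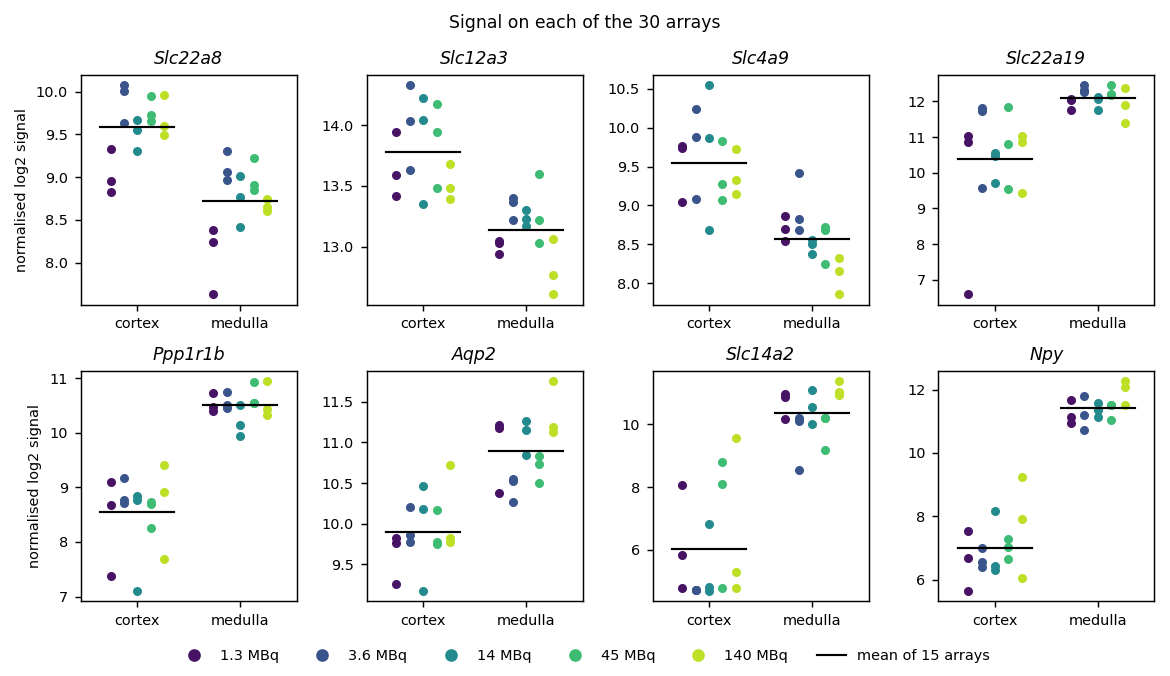
Normalised log2 signal (vertical axis) of 8 genes on each of the 30 arrays, cortex left and medulla right, coloured by injected activity, with a line at the mean of 15 arrays. Npy and Ppp1r1b do not overlap between tissues, and the Slc14a2 signals of 5 cortex arrays lie between 6.82 and 9.55 while the other cortex arrays stay at or below 5.83.

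The 13 genes at least 2-fold higher in cortex are all given, a choice made after their values were seen. None of them separates the tissues completely. Hhatl, a relative of the hedgehog acyltransferase, led them with 7.45, 8.33 and 9.44 on cortex arrays and 6.32, 7.31 and 7.94 on medulla arrays (1.201 ± 0.15, 2.30-fold, limma adjusted p = 1.18e-06). Serpina3b, a serine protease inhibitor, stood at 6.72, 7.60 and 8.17 on cortex arrays and 5.60, 6.45 and 7.33 on medulla arrays (1.17 ± 0.11). Clic6, a chloride channel-like protein (1.12 ± 0.20), Acsm2, a mitochondrial medium-chain acyl-CoA synthetase (1.09 ± 0.25), and Gatm, the first enzyme of creatine synthesis (1.09 ± 0.38), followed. The remaining 8 were Klk1b8, Etv4, Kcne1, S100g, Cyp2d12, Ltc4s, Rnase1 and Tk1, with differences between 1.01 and 1.07. Without the arrays of high adipocyte signal Gatm and S100g did not pass (0.85 and 0.80, adjusted p = 0.142 and 0.119), and Gatm failed the threshold in 11 of 47 settings in all. Complete separation in this direction was found only below 2-fold, for Enpp6, a choline-specific phosphodiesterase (0.71 ± 0.08), and Nrarp, a Notch-regulated ankyrin repeat protein (0.76 ± 0.08). Enpp6 ran from 11.83 to 12.62 on cortex arrays and from 11.04 to 11.70 on medulla arrays.

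Of 12 podocyte markers of the glomerulus 6 were measured and 0 passed by limma, against 26.7% of all genes. Their median difference was 0.09, and 0 of the 6 had an unadjusted p under 0.05. Podxl, the sialomucin of podocyte foot processes, differed by 0.04 (95% interval -0.29 to 0.38), and Wt1, a podocyte transcription factor, by 0.45 (-0.02 to 0.91). Wt1 had 7.31, 9.47 and 10.001 on cortex arrays and 7.75, 8.77 and 9.67 on medulla arrays, so the ranges overlap almost wholly. Ptpro, a podocyte phosphatase, differed by 0.13 ± 0.23. Podxl, Wt1 and Ptpro were thus measured on the medulla arrays too, and the other 6 podocyte markers were not analysed here. Wt1 passed without the 14 MBq arrays (0.61, adjusted p = 0.0234). The 3 measured mesangial and renin cell markers included 0 that passed by limma, with a median of -0.06 (-0.43 without the arrays of high adipocyte signal), and 1 had an unadjusted p under 0.05.

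Genes of the early proximal tubule (S1 and S2), which reclaims glucose, phosphate, amino acids and organic anions, were higher in cortex by small amounts. Of 12 measured members 9 were higher and 1 was lower (14% and 12.7% of all genes), with a median of 0.47. Slc22a8, the organic anion transporter OAT3, had 8.83, 9.64 and 10.08 on cortex arrays and 7.63, 8.77 and 9.31 on medulla arrays (0.87 ± 0.08, adjusted p = 9.38e-09). Slc5a2, the glucose cotransporter SGLT2, had 9.40, 10.18 and 10.69 on cortex arrays and 8.66, 9.42 and 9.97 on medulla arrays (0.71 ± 0.11). For both genes every cortex value exceeds the lowest medulla value. The lowest cortex value lies close to the medulla median, so the ranges overlap. Slc7a8, a neutral amino acid exchanger (0.74 ± 0.10), Slc22a6, the transporter OAT1 (0.60 ± 0.10), and the phosphate carrier Slc34a3 (0.56 ± 0.12) went the same way. Slc34a1, the main renal phosphate carrier, differed by only 0.16 ± 0.05, with 14.99 as median on cortex arrays and 14.82 on medulla arrays, close to the highest log2 signal of any array (15.15). Slc17a3, a urate and anion carrier, was the member lower in cortex (-0.67 ± 0.13).

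Uptake receptors and metabolic genes of the whole proximal tubule were mixed, 8 of 14 higher and 2 lower in cortex, with a median of 0.22. The lower members are near the share of all genes (12.7%). Amn, the partner of cubilin in protein uptake (0.32 ± 0.07), Ass1, the argininosuccinate synthase (0.51 ± 0.07), Miox, which breaks down myo-inositol (0.38 ± 0.07), and Cyp4b1 (0.49 ± 0.10) were higher in cortex. The probe of Lrp2, the megalin gene, was dim and detected on 10 of 15 cortex arrays and 15 of 15 medulla arrays. Its difference of -0.36 ± 0.13 (adjusted p = 0.0401) did not pass in 22 of 47 other settings (adjusted p up to 0.158), such as without cortex 1.3 MBq replicate 1 (-0.33, adjusted p = 0.069). Hnf4a, the transcription factor of this segment, differed by 0.14 ± 0.07 (adjusted p = 0.147).

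Of 9 measured genes of the straight proximal tubule 4 were lower and 0 were higher in cortex, with a median of -0.16. Among these 4 was Atp11a, detected on 0 cortex arrays and 9 medulla arrays, so it passed the detection filter through medulla alone. A second Atp11a probe did not pass (-0.19 ± 0.09). Slc22a19, the organic anion transporter OAT5, had 6.60, 10.81 and 11.84 on cortex arrays and 11.39, 12.13 and 12.46 on medulla arrays (-1.70 ± 0.33, adjusted p = 0.000285). Slc22a7, the transporter OAT2, had 6.60, 7.69 and 8.66 on cortex arrays and 7.76, 8.74 and 9.36 on medulla arrays (-1.04 ± 0.17). The androgen-regulated gene Kap, from another list, was at 7.59 on cortex 1.3 MBq replicate 1 and between 10.67 and 14.47 on the other cortex arrays, against 13.24 to 14.66 on medulla arrays. That array also held the lowest Slc22a19 value. The difference of Kap was -1.44 ± 0.46, and -1.03 without that array. It did not pass without the 14 MBq arrays (adjusted p = 0.0613) or the 45 MBq arrays (adjusted p = 0.0503). Cyp7b1, an oxysterol hydroxylase, was lower in cortex too (-0.46 ± 0.11), whereas Slc5a1, the cotransporter SGLT1, differed by 0.19 ± 0.10 and did not pass. Acsm3 (0.75 ± 0.37), Glul (0.54 ± 0.30), Slc5a8 (-0.10 ± 0.13) and Slc27a2 (-0.16 ± 0.07) did not pass either.

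Further brush border and proximal genes lower in cortex were found among the called genes and chosen after their values were seen. Slc7a12, an amino acid transporter (-2.03 ± 0.45), Slc17a2, an anion carrier (-1.98 ± 0.31), and Mep1b, the brush border protease meprin beta (-1.89 ± 0.28), each differed by more than 3-fold. Havcr1, which encodes the injury marker KIM-1, had 7.07, 10.44 and 11.29 on cortex arrays and 10.999, 11.95 and 12.48 on medulla arrays (-1.86 ± 0.32, adjusted p = 6.00e-05). On the untreated arrays these genes were closer together, Slc7a12 at -0.54, Slc17a2 at -0.70, Mep1b at -0.72 and Havcr1 at -0.73. The treated minus untreated contrast did not pass for any of them.

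Thin limb genes had the lowest median of the 28 lists, with 6 of 7 measured members lower and 0 higher in cortex and a value of -2.25. Slc14a2 encodes the UT-A urea transporters, which let urea leave the inner medullary collecting duct and enter the thin limb. It had 4.71, 4.82 and 9.55 on cortex arrays and 8.54, 10.19 and 11.36 on medulla arrays (-4.31 ± 0.44, adjusted p = 3.80e-08), and was detected on 6 of 15 cortex arrays. Its size changed with the processing and ran from -5.21 to -2.76 over the settings tried. Its 2 dimmer probes gave -1.79 ± 0.24 and -0.56 ± 0.37, the last of which did not pass (adjusted p = 0.281). Values were high on cortex 1.3 MBq replicate 2 (8.06), 14 MBq replicate 3 (6.82), 45 MBq replicates 1 (8.80) and 3 (8.11) and 140 MBq replicate 2 (9.55), while the remaining cortex arrays ran from 4.71 to 5.83. The first 4 of these also carried high adipocyte signal. Without the arrays of high adipocyte signal the difference was -5.21, and the list median was -2.82. With the authors' normalised table that median was -1.33. On cortex 140 MBq replicate 2 the list mean reached 0.33 above the mean of all 30 arrays, inside the medulla range of 0.11 to 1.69. Cryab, a small heat shock protein, averaged 9.69 ± 1.54 on cortex arrays and 11.94 ± 0.69 on medulla arrays (SD, n = 15 each). The water channel Aqp1, shared by proximal tubule and thin descending limb, was bright in both tissues and still separated completely, with 13.26 to 13.90 on cortex arrays and 13.91 to 14.34 on medulla arrays (-0.53 ± 0.06).

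Osmolyte genes, with which medullary cells balance the hypertonic interstitium, went the same way, 6 of 9 lower and 0 higher in cortex, with a median of -0.40. Slc14a2 is also on this list. Slc6a12, the betaine carrier BGT1, had 5.03, 5.64 and 8.31 on cortex arrays and 7.995, 9.39 and 10.24 on medulla arrays (-3.12 ± 0.35, adjusted p = 1.96e-07). Nfat5, the transcription factor that responds to tonicity, was lower in cortex by a small amount (-0.40 ± 0.11). So was the taurine carrier Slc6a6 (-0.29 ± 0.07), which did not pass under median scaling. The list member Slc38a2 counts as lower by its brightest probe (-0.52 ± 0.08). Its other probes gave -0.08 ± 0.14, at nearly the same brightness, and -0.02 ± 0.10. Neither of these passed (limma, adjusted p = 0.741 and 0.916), so the probes disagree. The myo-inositol carrier Slc5a3 differed by -0.04 ± 0.20.

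Thick ascending limb genes, of the segment that dilutes the tubular fluid, gave 6 of 10 lower and 0 higher in cortex, with a median of -0.51. Ppp1r1b, a phosphatase inhibitor also known as DARPP-32, had 7.11, 8.73 and 9.41 on cortex arrays and 9.94, 10.50 and 10.94 on medulla arrays, with no overlap (-1.96 ± 0.17, adjusted p = 3.13e-09). Slc12a1, the furosemide-sensitive cotransporter NKCC2, had 12.69, 13.32 and 13.89 on cortex arrays and 13.79, 14.17 and 14.31 on medulla arrays (-0.79 ± 0.09). Its 4 probes gave differences between -0.79 and -1.66, the largest at the dimmest probe. Umod, which encodes uromodulin, differed by -0.28 ± 0.06 near the top of the signal range and did not pass under median scaling (-0.12, adjusted p = 0.204). Kcnj1, the potassium channel ROMK, added later, differed by -0.01 ± 0.13.

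Claudins, the tight junction proteins that set which ions pass between cells, were 6 of 15 lower and 2 higher in cortex, against 12.7% and 14% of all genes, so the higher members are near the share of all genes. Cldn10, a cation- and anion-pore former with several transcript forms, separated completely with its brightest probe (-0.76 ± 0.06), with 12.86 to 13.36 on cortex arrays and 13.42 to 14.21 on medulla arrays. Its other 3 probes gave -2.50 ± 0.14, -1.05 ± 0.09 and 0.04 ± 0.10, so its probes disagree in size. Cldn19, a partner of Cldn16 in magnesium and calcium uptake, was lower in cortex (-1.26 ± 0.18), whereas Cldn16 differed by -0.14 ± 0.11. Cldn11 ran from 4.79 to 10.38 on cortex arrays and from 5.89 to 10.97 on medulla arrays (-1.88 ± 0.62, adjusted p = 0.025), and did not pass when the 1.3, 3.6, 14 or 140 MBq arrays were left out (adjusted p up to 0.165). Cldn6 (0.51 ± 0.14) and Cldn9 (0.33 ± 0.10) were the members higher in cortex. Cldn2, a proximal tubule pore, differed by 0.01 ± 0.05.

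**Figure D2:**
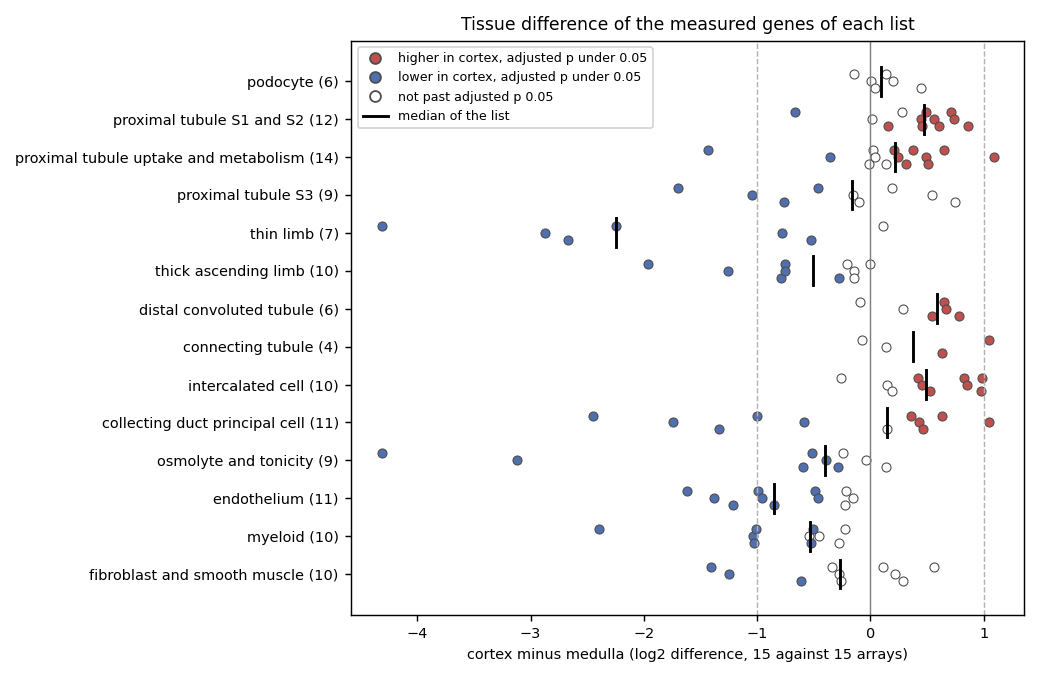
Cortex minus medulla difference (log2, horizontal axis) of each measured gene in 14 lists, with the number measured in brackets, the list median as a bar and dashed lines at 2-fold. Thin limb genes reach -4.31, while no gene of the S1 and S2, distal convoluted tubule or intercalated cell lists lies beyond 1.

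Genes of the distal convoluted tubule, the thiazide-sensitive segment, were higher in cortex for 4 of 6 and lower for 0, with a median of 0.59. Slc12a3, the thiazide-sensitive cotransporter NCC, had 13.35, 13.68 and 14.33 on cortex arrays and 12.61, 13.17 and 13.60 on medulla arrays (0.65 ± 0.09, adjusted p = 3.13e-06). Pvalb, the calcium-binding protein parvalbumin (0.67 ± 0.09), Trpm6, the magnesium channel (0.78 ± 0.14), and Cnnm2, a magnesium carrier (0.54 ± 0.08), accompanied it. Egf, made in the same segment and in the thick ascending limb, differed by -0.10 ± 0.06.

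In the connecting tubule 2 of 4 genes were higher and 0 lower in cortex. S100g, the cytosolic calcium buffer calbindin-D9k, spread from 5.69 to 10.55 on cortex arrays and from 5.46 to 9.34 on medulla arrays (1.04 ± 0.32). Slc8a1, the sodium-calcium exchanger, was tighter (0.63 ± 0.08), and the calcium channel Trpv5 differed by -0.07 ± 0.14.

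Intercalated cells secrete acid or base along the connecting tubule and collecting duct. Of 10 measured genes 7 were higher and 0 were lower in cortex, with a median of 0.49. Slc4a9, the anion exchanger AE4 of base-secreting cells, had 8.69, 9.73 and 10.55 on cortex arrays and 7.86, 8.55 and 9.42 on medulla arrays (0.98 ± 0.15, adjusted p = 1.18e-05), and Slc26a4, the exchanger pendrin of the same cells, differed by 0.83 ± 0.09. Insrr, a receptor that senses alkaline pH, was detected on 12 cortex arrays and 0 medulla arrays and was at least 1.45-fold higher in cortex (adjusted p = 1.25e-05). The ammonia channel Rhbg (0.86 ± 0.11) and the transcription factor Foxi1 (0.52 ± 0.15) were higher in cortex as well. Slc4a1, the exchanger AE1 of acid-secreting cells and erythrocytes, differed by -0.26 ± 0.11 and did not pass (adjusted p = 0.0795).

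Principal cell genes split within 1 cell type, with 5 of 11 higher and 5 lower in cortex. Water channels were lower in cortex. Aqp2, the vasopressin-regulated channel, had 9.18, 9.83 and 10.72 on cortex arrays and 10.27, 10.84 and 11.75 on medulla arrays (-0.997 ± 0.13, just short of 2-fold). Aqp3, its basolateral partner, differed by -0.59 ± 0.12. Aqp4 had 5.87, 8.87 and 10.53 on cortex arrays and 10.09, 11.09 and 12.08 on medulla arrays (-2.45 ± 0.34, adjusted p = 4.15e-06). All 3 subunits of the epithelial sodium channel were higher in cortex, Scnn1b by 0.63 ± 0.11, Scnn1g by 0.47 ± 0.07 and Scnn1a by 0.43 ± 0.12. Fxyd4, a regulator of the sodium pump (-1.34 ± 0.12), and Elf5, an ETS factor of principal cells (-1.74 ± 0.23), were lower in cortex. Over the aquaporin family 4 of 8 were lower and 1 was higher, near the 14% of all genes, Aqp11 (0.28 ± 0.09).

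Among 17 measured transcription factors of nephron segments 9 were lower and 3 were higher in cortex, against 12.7% and 14% of all genes. The higher members are thus near the share of all genes. Irx2 had 7.33, 8.70 and 9.25 on cortex arrays and 9.38, 9.75 and 10.04 on medulla arrays, with no overlap (-1.22 ± 0.14, adjusted p = 1.78e-07). Its relatives Irx1 (-0.99 ± 0.11) and Irx3 (-0.65 ± 0.09) and the loop of Henle factor Pou3f3 (-1.11 ± 0.15) were lower in cortex too. Lhx1, a factor of nephron formation, was higher (0.85 ± 0.14), as were Foxi1 and Ppara, the regulator of fatty acid oxidation (0.41 ± 0.12). Pax2 was detected on 0 cortex arrays and 10 medulla arrays.

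Glucose is made in the proximal tubule and burnt by glycolysis further down the nephron. Of 7 gluconeogenesis genes 3 were higher in cortex, with a median of 0.38: Slc37a4, the glucose-6-phosphate carrier of the endoplasmic reticulum (0.53 ± 0.10), the phosphatase G6pc that it feeds (0.39 ± 0.12, adjusted p = 0.022, and up to 0.0947 with 1 activity left out), and the pyruvate carboxylase Pcx (0.38 ± 0.08). Glud1 was the only member lower (-0.32 ± 0.09), near the 12.7% of all genes. Pck1 differed by 0.64 ± 0.29 and did not pass. Of 12 glycolysis genes 4 were lower in cortex, but the list median was -0.01. The lower members were the hexokinase Hk1 (-0.75 ± 0.10), the platelet-type phosphofructokinase Pfkp (-1.01 ± 0.11), Pfkl (-0.19 ± 0.06) and Pgk1 (-0.31 ± 0.11). Pgk1 was detected on 2 of 15 cortex and 8 of 15 medulla arrays and failed the threshold in 8 of 46 settings. Pfkl failed it in 5 of 47, and a dimmer probe of Pfkl gave 0.05 ± 0.10. The 2 higher, near the 14% of all genes, were Gapdh (0.21 ± 0.04) and Pfkm (0.15 ± 0.05). Pfkm failed the threshold in 10 of 47 settings, and a dimmer probe of it went the other way (-0.27 ± 0.09). Fatty acid oxidation had 1 of 10 higher and 1 lower, Acadm (-0.39 ± 0.07), near the shares of all genes (14% and 12.7%).

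Promoters are shown for genes of both directions that hold a motif of a kidney transcription factor. Windows of 250 bases before to 50 bases after the start, from RefSeq on GRCm38.p6, matched 156 of the 222 named genes. They were searched on both strands for HNF1 (GTTAATNAT), HNF4 (CAAAGTCCA), grainyhead (AACCNGTT), the estrogen-related receptor (TCAAGGTCA) and the tonicity element (TGGAAANNC). Capitals mark the match. The G6pc window lies at chr11:101367466-101367765 (plus strand), Slc37a4 at chr9:44398104-44398403 (plus strand), Kap at chr6:133853618-133853917 (minus strand) and Hhatl at chr9:121792458-121792757 (minus strand).
G6pc: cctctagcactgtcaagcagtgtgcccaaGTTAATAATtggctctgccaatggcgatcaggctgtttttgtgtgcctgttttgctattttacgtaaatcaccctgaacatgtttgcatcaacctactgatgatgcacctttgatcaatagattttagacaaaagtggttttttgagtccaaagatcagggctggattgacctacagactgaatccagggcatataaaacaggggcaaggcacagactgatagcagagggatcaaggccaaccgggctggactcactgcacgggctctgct
Slc37a4: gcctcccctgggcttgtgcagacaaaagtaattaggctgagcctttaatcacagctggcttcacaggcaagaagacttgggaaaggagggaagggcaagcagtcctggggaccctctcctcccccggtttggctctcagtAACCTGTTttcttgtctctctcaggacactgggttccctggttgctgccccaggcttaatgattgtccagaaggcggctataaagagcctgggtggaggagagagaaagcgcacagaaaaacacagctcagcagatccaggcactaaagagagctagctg
Kap: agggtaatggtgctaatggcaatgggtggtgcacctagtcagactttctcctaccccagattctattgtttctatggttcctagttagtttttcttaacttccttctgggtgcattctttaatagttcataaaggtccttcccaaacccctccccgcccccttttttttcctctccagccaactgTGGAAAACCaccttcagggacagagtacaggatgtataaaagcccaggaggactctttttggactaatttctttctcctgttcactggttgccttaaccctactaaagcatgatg
Hhatl: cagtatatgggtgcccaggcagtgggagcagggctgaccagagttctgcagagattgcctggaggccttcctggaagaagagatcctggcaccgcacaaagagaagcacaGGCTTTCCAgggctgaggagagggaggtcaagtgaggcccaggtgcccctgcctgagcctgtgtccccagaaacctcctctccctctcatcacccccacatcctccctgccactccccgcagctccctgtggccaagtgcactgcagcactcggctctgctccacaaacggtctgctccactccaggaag

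The G6pc match is an HNF1 motif 221 bases before the start, and the Slc37a4 match a grainyhead motif 110 bases before it. Kap and Hhatl each hold the tonicity element, at 65 and 140 bases before the start, although Kap was lower and Hhatl higher in cortex. Over all 32851 windows the shares with a match were 0.801% for HNF1, 0.475% for HNF4, 2.09% for grainyhead, 0.423% for the estrogen-related receptor and 4.97% for the tonicity element. Among windows of genes higher in cortex 14 of 1571 held HNF1 (0.891%), among those of genes lower in cortex 7 of 1403 (0.499%), and among genes that did not pass 31 of 7855 (0.395%). For the tonicity element these shares were 4.71%, 4.13% and 4.32%. The shares are a description with no test.

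Blood vessel genes were lower in cortex, 8 of 11 endothelial members with 0 higher and a median of -0.85 (-1.09 without the arrays of high adipocyte signal and -0.51 with the authors' normalised table). Esam, an endothelial adhesion molecule, had 8.42, 9.40 and 10.15 on cortex arrays and 10.42, 11.04 and 11.52 on medulla arrays, with no overlap (-1.62 ± 0.13, adjusted p = 3.43e-10). Plvap, which forms the diaphragms of fenestrae, did not overlap either (-1.38 ± 0.13). Slc14a1, the urea transporter UT-B of the descending vasa recta, was detected on 2 of 15 cortex arrays and 11 of 15 medulla arrays (-1.21 ± 0.15). Angpt2, an angiopoietin named after its values were seen, had 6.35, 7.71 and 9.63 on cortex arrays and 9.45, 10.50 and 11.23 on medulla arrays (-2.68 ± 0.24).

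Macrophage genes were lower in cortex for 6 of 10 myeloid members and higher for 0. Lyz2, the lysozyme of macrophages and neutrophils, had 5.63, 8.22 and 10.40 on cortex arrays and 9.51, 10.72 and 11.85 on medulla arrays (-2.40 ± 0.29, adjusted p = 4.51e-07). The macrophage receptor Adgre1 (-1.01 ± 0.19) and the complement genes C1qb (-1.04 ± 0.17) and C1qc (-1.03 ± 0.18) were lower as well. Of 5 lymphoid genes 1 was lower, Cd79b (-0.56 ± 0.14). Of 4 erythroid genes 2 were lower in cortex, Hba-a1 (-0.80 ± 0.19) and Alas2 (-0.59 ± 0.21). Alas2 failed the threshold in 24 of 47 settings, with adjusted p up to 0.178. Among 10 fibroblast and smooth muscle genes 3 were lower, Tnc (-1.41 ± 0.16), Pdgfra (-1.25 ± 0.29) and Dcn (-0.61 ± 0.21, which failed the threshold in 11 of 47 settings), and smooth muscle Acta2 differed by 0.29 ± 0.20.

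Lining cells of the renal pelvis gave 1 of 9 urothelial genes lower in cortex, the uroplakin Upk3b (-1.87 ± 0.24), near the 12.7% of all genes, and 5 of 9 without the arrays of high adipocyte signal. The list mean ran from -1.03 to 1.48 on cortex arrays and from -0.68 to 0.93 on medulla arrays, with the highest cortex value on 45 MBq replicate 3. Psca, a surface protein of urothelium chosen after its values were seen, had 5.88, 6.55 and 10.06 on cortex arrays and 7.42, 10.31 and 11.52 on medulla arrays (-2.55 ± 0.44). It was at 9.15 to 10.06 on the same 5 cortex arrays that had high Slc14a2 signals, and its part in the thin limb result was not tested. The adipocyte and adrenal lists had 0 of 8 and 0 of 5 genes past the threshold by limma, and 1 and 0 with an unadjusted p under 0.05.

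**Figure D3:**
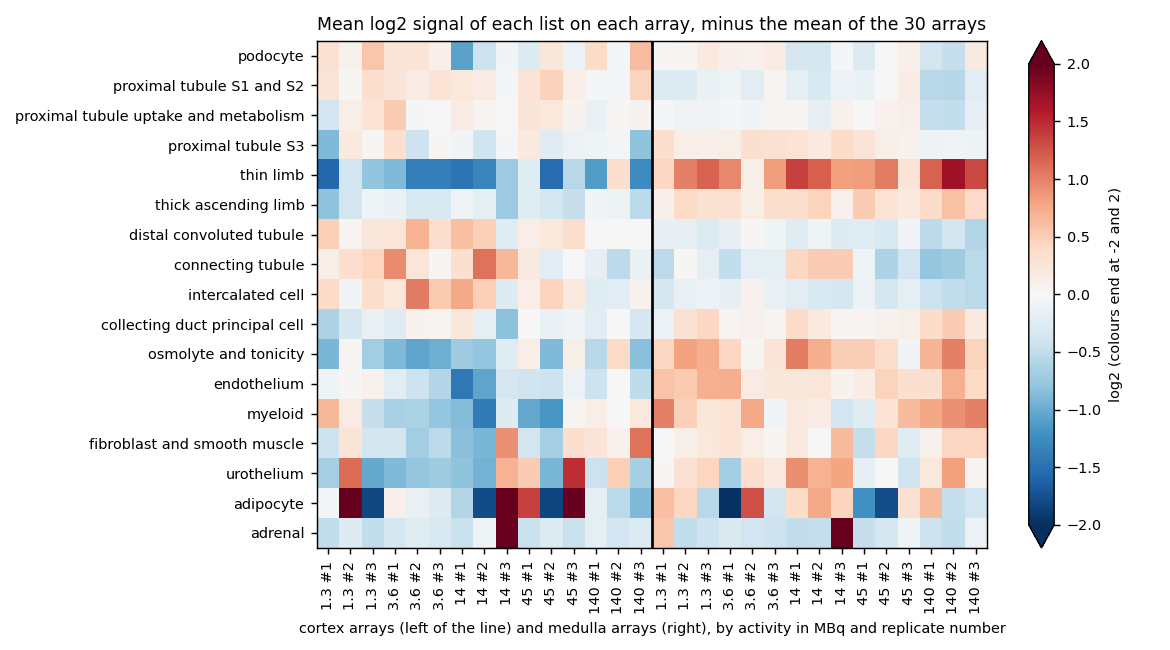
Mean log2 signal of 17 lists (rows) on the 30 arrays (columns, cortex left of the line, medulla right), each minus the mean of the 30 arrays, with colours ending at -2 and 2. Thin limb, osmolyte and endothelial signals are low on most cortex arrays and high on medulla arrays, and the adipocyte list is high on 4 cortex arrays and 1 medulla array.

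The panel also held Sstr2, a somatostatin receptor that binds octreotate, whose probe did not pass the detection filter and was not tested. Genes of the DNA damage response were near equal between the tissues. Of 17 measured p53 targets 1 was higher in cortex, Sesn2 (0.39 ± 0.13), and 0 were lower, with a median of 0.12. These counts use the brightest probe of each gene. A dimmer Sesn2 probe did not pass (0.24 ± 0.13). Ccng1 gave 0.14 ± 0.07 with its brightest probe. Its dimmer probes gave -0.13 ± 0.07 and -0.39 ± 0.08, the last of which passed (limma, adjusted p = 0.000402). Cdkn1a, the cell cycle inhibitor p21, also added later, averaged 9.80 ± 1.504 on cortex arrays and 9.64 ± 1.44 on medulla arrays (SD, n = 15 each), a spread across activities much wider than the tissue difference of 0.16 ± 0.12. Hypoxia response genes were 4 of 9 higher in cortex, Adm (0.71 ± 0.11), Car12 (0.70 ± 0.09), Egln3 (0.69 ± 0.13) and Ndrg1 (0.37 ± 0.09). The 1 lower member, near the 12.7% of all genes, was the glucose carrier Slc2a1 (-0.64 ± 0.08).

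The next comparison asks whether the tissue difference depended on the injected activity. Tissue contrasts at each activity came from a fit of all 30 arrays, with a spread shared by the activities. They called 4 genes higher and 88 lower in cortex by 2-fold at 1.3 MBq (0.0355% and 0.781%). The counts were 4 and 45 at 3.6 MBq (0.0355% and 0.4%) and 10 and 132 at 14 MBq (0.0888% and 1.17%). They were 8 and 67 at 45 MBq (0.071% and 0.595%) and 17 and 89 at 140 MBq (0.151% and 0.79%). These counts did not run in one direction with activity. Npy differed by -4.63, -4.59, -4.38, -4.36 and -4.21 from the lowest to the highest activity, each ± 0.56. Slc12a3 differed by 0.64, 0.66, 0.64, 0.58 and 0.70, each ± 0.21. Slc14a2 differed by -4.42, -4.88, -5.10, -2.61 and -4.55, each ± 0.99, and the smallest of these is at 45 MBq, where cortex replicates 1 and 3 had high Slc14a2 signals.

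Tests of the interaction gave no gene. With limma 0 genes (0%) passed an adjusted p of 0.05 for any difference among the 5 tissue contrasts, and 207 (1.84%) had an unadjusted p under 0.05. For a slope of the tissue difference on log2 activity 0 genes (0%) passed and 172 (1.53%) had an unadjusted p under 0.05. Both shares are smaller than evenly spread p-values would give at that cut, so these tests were conservative. With the replicate block 299 and 286 genes had an unadjusted limma p under 0.05. The counts of 0 therefore do not show that the tissue difference is the same at all activities. The damage-induced kinase Plk2 was among the 10 smallest slope p-values, with differences of -0.69, -0.29, -0.19, 0.16 and 0.28 (0.14 ± 0.04 per doubling, unadjusted p = 0.00107). Ephx1, an epoxide hydrolase, was another, with -0.64, -0.25, -0.14, 0.14 and 0.13 (0.11 ± 0.03, unadjusted p = 0.00267). Both are on the list of 17 measured p53 targets, and neither passed after adjustment. Slopes of the other p53 targets are not given, and a trend of that list with activity was not tested. The smallest interaction p-values belonged to G6pc2, Slc37a3 and the Wnt agonist Rspo3, whose difference was -0.82 at 14 MBq and 1.31 at 140 MBq.

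**Figure D4:**
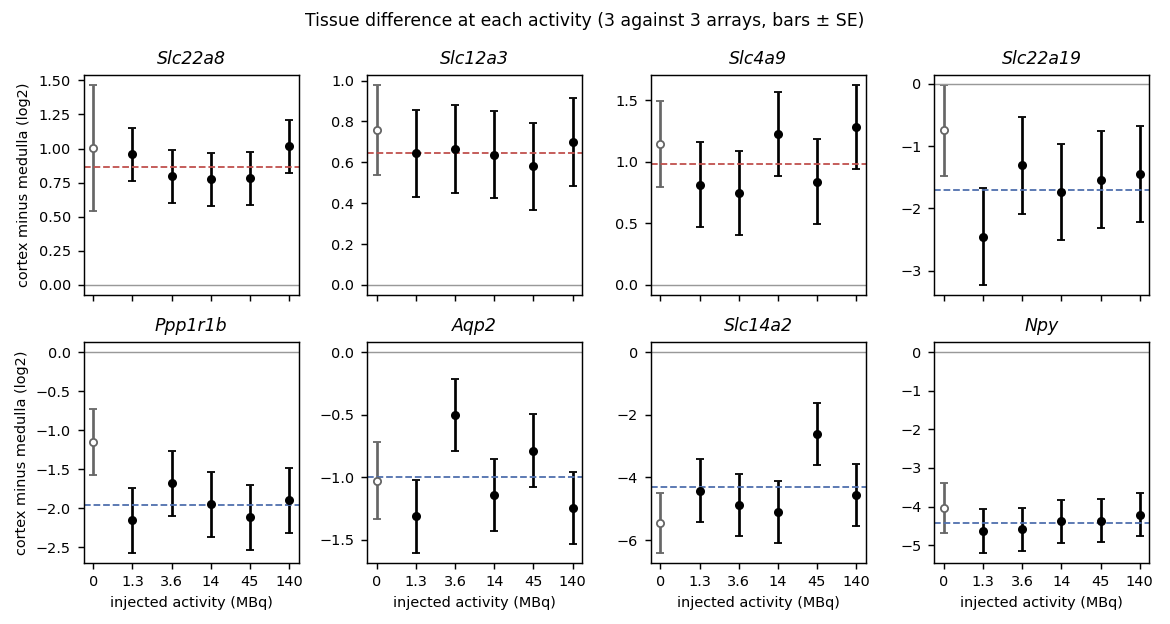
Cortex minus medulla difference (log2, vertical axis) of 8 genes at each injected activity in MBq (horizontal axis), 3 against 3 arrays, bars ± SE, with 0 MBq as open points from the fit of all 36 arrays and the difference over the 30 arrays as a dashed line. Each gene keeps its direction at all 5 activities, and the 0 MBq points of Slc22a19 (-0.75) and Ppp1r1b (-1.16) lie nearer to 0 than their dashed lines.

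The 6 untreated arrays, which share no sample with the 30, gave differences of the same sign for 190 of 191 genes called at 2-fold, against 73.29% of all 11232 genes with a value. All 13 genes higher in cortex kept their sign there, as did 177 of 178 genes lower in cortex. The exception, Hdc, the histidine decarboxylase that makes histamine, was named after its values were seen. It differed by -1.06 ± 0.34 on the treated arrays and by 0.07 on the untreated arrays. In the test of the treated minus the untreated tissue difference 0 genes (0%) passed with limma, and 207 of 11471 (1.8%) had an unadjusted p under 0.05. This share is again smaller than evenly spread p-values would give, and the replicate block gave 338 such genes. With 3 untreated arrays per tissue the treated minus untreated contrast has a wide error, for instance 1.13 ± 1.04 for Slc14a2 and -0.95 ± 0.80 for Slc22a19.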

How the data were processed

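For 25697 probes the authors deposited linear intensity values, which the columns and values show as not normalised, with a detection p-value each. A deposited series table of normalised intensity values served as an alternative; how the authors normalised it is not given in the sources used here. Exactly 1 gene symbol was given for 23974 probes and none for 1723.

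From the deposited intensities a normexp background was removed, its parameters estimated through the detection p as in neqc. An offset of 16, quantile normalisation over 36 arrays and log2 followed (limma 3.58.1, R 4.3.3; figures with matplotlib 3.10.9). Probes with a detection p under 0.05 on at least 3 of the 30 arrays were kept (15137), and the brightest probe stood for a gene, which gave 11261 genes (886 unnamed). lmFit and eBayes fitted tissue plus activity with 24 residual degrees of freedom, with Benjamini-Hochberg adjustment over all genes. The interaction, the slope on log2 activity and the contrast with 0 MBq were fitted likewise. A gene undetected on all 15 arrays of a tissue is given a bound from the detection limit. Errors are SE unless SD is written, and the number of arrays limits the precision. The scripts were tested on simulated data.

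Named genes are up to 12 of the largest completely separating genes per direction among those called at 2-fold, of which 0 were higher in cortex. To these come up to 4 members per direction from each of 28 lists, a panel of segment markers and all measured aquaporins and claudins. The genes with the smallest interaction, slope and treated minus untreated p-values were also taken. Other genes, among them the list members Irx3, Cryab, Nfat5, Pax2 and Slc34a3, were added after their values were seen. The members and lists were chosen with earlier results of these data known. Alternatives were other normalisations, filters and thresholds, every probe, array weights, a replicate block and single arrays or activities left out. Fits without arrays of high adipocyte or adrenal signal, and with the adipocyte list mean as a covariate, were added after seeing the data. Genes of a list with no probe were not analysed here.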

Additional observations from a re-analysis of the deposited data

How the results depend on the processing

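The count of 192 genes 2-fold apart fell to 81 with the authors' normalised table (0 higher and 81 lower in cortex), to 82 without background correction and to 124 when tested against 1.5-fold (5 higher and 119 lower), and was 3003 for an adjusted p under 0.05 without a fold. Under the filters, median scaling, array weights and left-out activities it lay between 172 and 206, with every probe at 251, and with single arrays left out between 175 (without cortex 1.3 MBq replicate 1) and 208 (without cortex 140 MBq replicate 2). Median scaling split the genes past adjusted p into 1965 higher and 1308 lower in cortex, against 1572 and 1431. The interaction, slope and treated minus untreated tests gave 0 genes under every setting run. Of the 13 genes higher in cortex by 2-fold, 0 stayed 2-fold with the authors' table. The adipocyte list median, 0.41 in cortex minus medulla, was -0.74 without the arrays of high adipocyte signal. No named gene run under the settings and past the threshold changed its sign. The setting with every probe reused the main probe of each named gene, so it could not show a probe that disagrees. A dimmer Pfkm probe, for instance, went the other way (-0.27 ± 0.09). Slc34a1, Aqp11, Cldn6, Cldn9, Sesn2, Ppara and Foxi1 failed the threshold with 1 or another activity left out, and Glud1 and Slc6a6 under median scaling. Dimmer second probes of Bcat1, Slc39a8, Ppp1r1b, Upk3b, Elf5, Slc14a1, Foxi1, Tk1 and Kcne1 gave smaller differences of the same sign. The dimmer probes of Slc39a8 and Foxi1, and the dimmest of Ppp1r1b and Kcne1, did not pass with limma (adjusted p from 0.0783 to 0.471). The cause of these shifts was not tested.

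Replicate numbers are shared between groups of both tissues. Deviations of same-numbered arrays from their group means correlated above 0.1 in 11 of 15 pairs (-0.307 to 0.51). Among the 3 arrays of the other tissue at the same activity, 22 of 30 arrays correlated best with their own number. This is a hint of pairing from the data and not from the design, and the main fit ignores it. With the replicate block 192 genes were called at 2-fold and 3284 by adjusted p, and the 3 tests of a changing tissue difference still gave 0.

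Signal limits the dim end, where many list members were detected on few cortex arrays, and the bright end, where values close to 15.15 leave little room for a difference.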

Other observations

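Igf2, the imprinted insulin-like growth factor gene, was chosen after its values were seen for its spread within each tissue. Its lowest, median and highest log2 signals were 7.08, 10.90 and 13.81 on cortex arrays and 8.94, 14.43 and 14.76 on medulla arrays. Same-numbered arrays of an activity could both be low or both be high. At 14 MBq replicate 1 Igf2 was 7.36 in cortex and 9.25 in medulla, and at 45 MBq replicate 1 it was 13.41 in cortex and 14.76 in medulla. These pairs were picked from 15 as examples. Over all genes the deviations of the 45 MBq replicate 1 pair correlated at only 0.0838. The difference of Igf2 between the tissues is given next. The tissue difference was -2.10 ± 0.76 (limma, adjusted p = 0.0404) and did not pass without cortex 1.3 MBq replicate 1 (-1.90, adjusted p = 0.0706). It failed the threshold in 25 of 47 other settings, with adjusted p up to 0.124.

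The signalling ligands Wnt7b and Wnt9b, also chosen after their values were seen, were both lower in cortex. Wnt7b had 4.68, 5.67 and 8.58 on cortex arrays and 7.41, 8.17 and 9.32 on medulla arrays (-2.27 ± 0.27, adjusted p = 3.39e-07). Wnt9b was detected on 0 cortex arrays and 12 medulla arrays and was at least 1.36-fold lower in cortex. The antiprotease genes Serpina1b (-2.24 ± 0.36) and Serpina1d (-2.36 ± 0.35), near-identical copies whose probes may share targets, and the transcription factor Sim2 (-1.86 ± 0.19) were lower in cortex too, and Sim2 did not overlap between the tissues.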
